A study of Mus musculus with 15 samples.

Results

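The 67 replication-dependent histone genes among the 31017 genes of the count tables were followed through 15 mouse libraries of RNA pulled down with antibodies. They were taken by symbol, as every gene whose symbol begins with Hist1h, Hist2h, Hist3h or Hist4h, and no measured value entered the choice. The core histones are encoded by 18 H2A, 18 H2B, 12 H3 and 13 H4 genes, and the linker histone by 6 H1 genes. The Hist1 cluster on chromosome 13 holds 54 of them, the Hist2 cluster on chromosome 3 holds 10, the Hist3 pair lies on chromosome 11 and Hist4h4 stands alone on chromosome 6.

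The series addressed a dominant mutation of Dnmt1, the maintenance DNA methyltransferase, in homozygous (Hom), heterozygous (Het) and wild type (WT) mice; the labels do not describe the allele, and give neither the age nor the number of animals. In the Dnmt1 RIP, RNA was recovered with a rabbit antibody to Dnmt1 from formaldehyde-fixed tail fibroblast lines made from littermates of the same sex (2 Hom, 2 Het and 2 WT libraries). In the m5C RIP, RNA already bound to oligo-dT beads was recovered with an antibody to 5-methylcytosine, a modified RNA base, from fibroblasts (1 Hom, 1 Het and 2 WT libraries) and from cortex (1 Hom, 1 Het and 1 WT library). A single library per tissue was titled input, with no genotype, and its antibody label names IgG. Nothing in the labels states that replicate libraries were grown or taken separately, and the p-values therefore rest on a spread that may be technical. Input being unmatched to genotype, more of an RNA pulled down and more of it in the cells cannot be told apart.

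Replication-dependent histone genes are transcribed mainly in S phase, when newly made DNA is packed into nucleosomes. Their messenger RNAs are unusual among those of animal cells in that most carry no polyA tail. They end instead just after a short stem-loop that is bound by the stem-loop binding protein, encoded by Slbp, and cut with the help of the U7 small nuclear RNA. Some members are known to yield polyadenylated forms as well, in particular in cells that have stopped dividing. Replacement histones such as H3f3b and H2afz are made throughout the cell cycle from ordinary polyadenylated messages.

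The stem-loop was looked up first, because it sets these transcripts apart and because the m5C RIP started from RNA on oligo-dT. The stem-loop was searched as an arm GGNNC, a middle TTNTNA and an arm GNNCC in a row (N, any base), on the transcript strand of the GENCODE M21 transcripts (mm10). They were present in 46 of the 67 genes (68.7%), against 0.379% of 21347 other protein-coding genes with transcripts in the same range of lengths. The sequences of the genes on which the results turn are given here from 5′ to 3′, with the stem-loop in capitals and 5 bases of the transcript on each side.

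Hist1h1c, chr13:23739507-23739532, + strand: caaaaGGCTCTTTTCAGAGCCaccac
Hist1h1e, chr13:23621777-23621802, - strand: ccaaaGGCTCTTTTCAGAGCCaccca
Hist3h2ba, chr11:58949344-58949369, + strand: ccaaaGGCTCTTTTCAGAGCCacctt
Hist1h3e, chr13:23561898-23561923, - strand: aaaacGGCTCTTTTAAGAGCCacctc
Hist1h4d, chr13:23581945-23581970, + strand: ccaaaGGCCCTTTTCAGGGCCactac
Hist1h4h, chr13:23531453-23531478, + strand: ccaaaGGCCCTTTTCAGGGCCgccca
Hist1h4a, chr13:23760795-23760820, - strand: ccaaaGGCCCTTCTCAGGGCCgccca
Hist1h4i, chr13:22040961-22040986, - strand: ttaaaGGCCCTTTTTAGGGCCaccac

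The H4 stems could be told from the others by their letters. All 12 H4 genes with the motif had a stem opening with GGCCC or GGTCC, whereas all 34 genes of the other families opened with GGCTC. The most common form, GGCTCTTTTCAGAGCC, was found in 26 genes, among them Hist1h1c, Hist1h1e and Hist3h2ba. The form of Hist1h4d and Hist1h4h, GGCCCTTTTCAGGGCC, was found in 7 genes, all of the H4 family. Hist1h3e had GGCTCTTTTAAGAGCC, a form of 6 genes from the H1, H2B and H3 families.

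In the annotation, 23 genes had a transcript that ended 3 to 74 bases after the stem-loop, and 23 had one that ran 100 bases or more beyond it. The other 21 had no such letters in the annotated transcript, Hist1h2bc among them. The Hist1h1c transcript, 1560 bases long, ran on for 840 bases after its stem-loop, and that of Hist1h4d for 770, whereas that of Hist1h4h stopped 46 bases after it. The polyA signal AATAAA lay in the last 40 bases of 15 histone transcripts (22.4%), including Hist1h1c, Hist1h4a, Hist3h2a and Hist3h2ba, against 63.0% of the other genes. These matches describe the annotation and do not show which ends were made in these cells.

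Many of these genes are near copies of each other, which limits what counts of short reads can assign. The median histone gene shared 54.1% of its 50-base stretches with transcripts of other genes, and 34 of the 67 shared over 50%. Of the 5 genes that shared all of them, Hist2h2aa1, Hist2h2aa2, Hist2h2bb and Hist2h3b had 0 counts in every library, and Hist2h3c1 had 86 in all. For 6 libraries the deposited counts have separate entries for ambiguous reads and for alignments that were not unique, apart from the genes. For the other libraries the sources used here do not say how the authors treated reads with several matches. They do not say for any library whether strand was used. Exons of 24 histone genes also overlapped those of another gene, among them Hist1h1e (25.7% of its exon bases) and Hist3h2a (33.0%), so their counts are uncertain in that share.

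**Figure D1:**
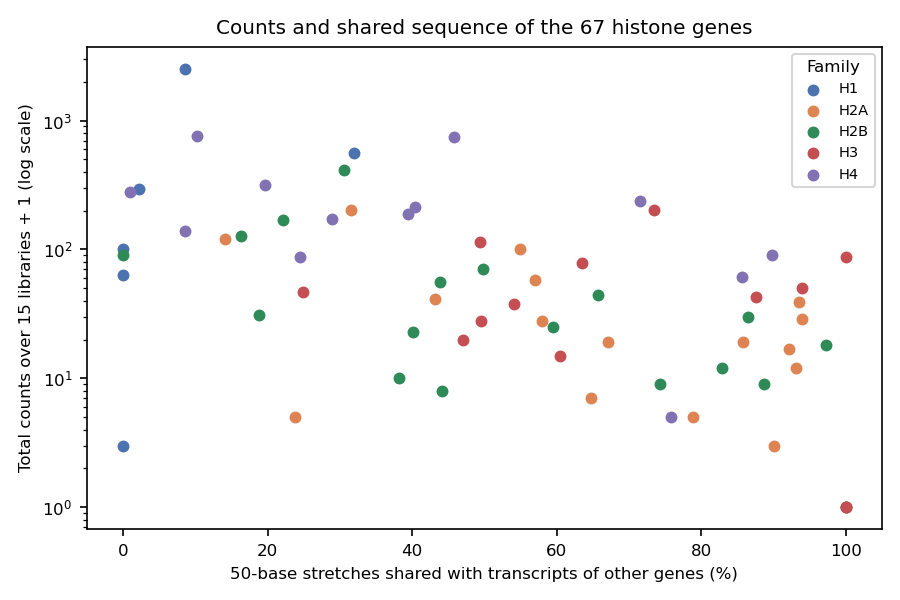
Total counts over the 15 libraries plus 1 (log scale) against the share of 50-base stretches found in transcripts of other genes, 1 point for each of the 67 histone genes, coloured by family. Hist1h1c, with 2516 counts, stands alone at the top, and the 4 genes at 0 counts lie on top of each other at 100%.

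All levels below are CPM, the counts of a gene per 1000000 gene counts after leaving out Lars2, Gm42418, Gm26917 and Gm10800, which held 4.01 to 63.5% of the gene counts of a library. Total gene counts were 217173 to 1362757 in the Dnmt1 RIP, 725824 to 2163814 in the fibroblast m5C RIP, 1310590 to 2408694 in the cortex m5C RIP, 228852 in fibroblast input and 4913482 in cortex input. The histone genes were sparse: they had 9336 counts in all, 14 genes had fewer than 10 over all libraries, 34 had 10 to 99 and 19 had 100 or more. Genes active mainly in the testis were close to 0, with 2 counts for Hist1h1t, 4 for Hist1h2aa and 9 for Hist1h2ba. A count of 0 allows up to 3 counts, or 0.656 CPM in cortex input and 31.5 CPM in fibroblast input, and all intervals and limits of this kind cover counting error only.

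The labelled cell types were set against marker genes. Summed over 10 fibroblast markers, the level was 595 to 22099 CPM in the Dnmt1 RIP, 24740 to 30889 CPM in the fibroblast m5C RIP and 520 to 627 CPM in the cortex m5C RIP. The Dnmt1 RIP libraries, labelled fibroblast, also carried 3455 to 5678 CPM of 10 neuron markers (Snap25, Camk2a and others), against 555 to 1120 CPM in the fibroblast m5C RIP and 9370 to 9938 CPM in the cortex m5C RIP. Summed over 8 macrophage markers, the level was 101 to 4975 CPM in the Dnmt1 RIP, 6828 to 13088 CPM in the fibroblast m5C RIP and 132 to 136 CPM in the cortex m5C RIP. Fibroblast input had 2113 CPM of fibroblast, 2723 CPM of neuron and 294 CPM of macrophage markers. Cortex input had 624, 8436 and 151 CPM of the same lists. On each list fibroblast input lay outside the range of the fibroblast m5C RIP. No neuron marker was at 0 in any Dnmt1 RIP or m5C RIP library, whereas C1qa, C1qb, Lyz2 and Aif1 of the macrophage list and Twist1 of the fibroblast list were at 0 in at least 1 Dnmt1 RIP library. The part of these cell types in the results below was not tested. A further limit lies in fibroblast m5C WT library 1, which was at or above the Hom library in all 31017 genes. Of its 657 histone counts, 598 were matched in the Hom library, and 22 of the 37 histone genes detected in it had equal counts in both, so the tests that use it were repeated without it.

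Together, the histone genes stood at 572 and 613 CPM in Hom, 505 and 586 CPM in Het and 326 and 454 CPM in WT libraries of the Dnmt1 RIP. In the fibroblast m5C RIP they stood at 872 CPM in Hom, 534 CPM in Het and 818 and 529 CPM in WT. In the cortex m5C RIP the sums were 425 CPM in Hom, 424 CPM in Het and 570 CPM in WT, beside 474 CPM in cortex input. The sums of the Dnmt1 RIP, the fibroblast m5C RIP and the cortex m5C RIP overlapped. Fibroblast input had 13 histone counts in all (137 CPM, 95% Poisson interval 72.8 to 234), 10 of them from Hist1h4f.

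**Figure D2:**
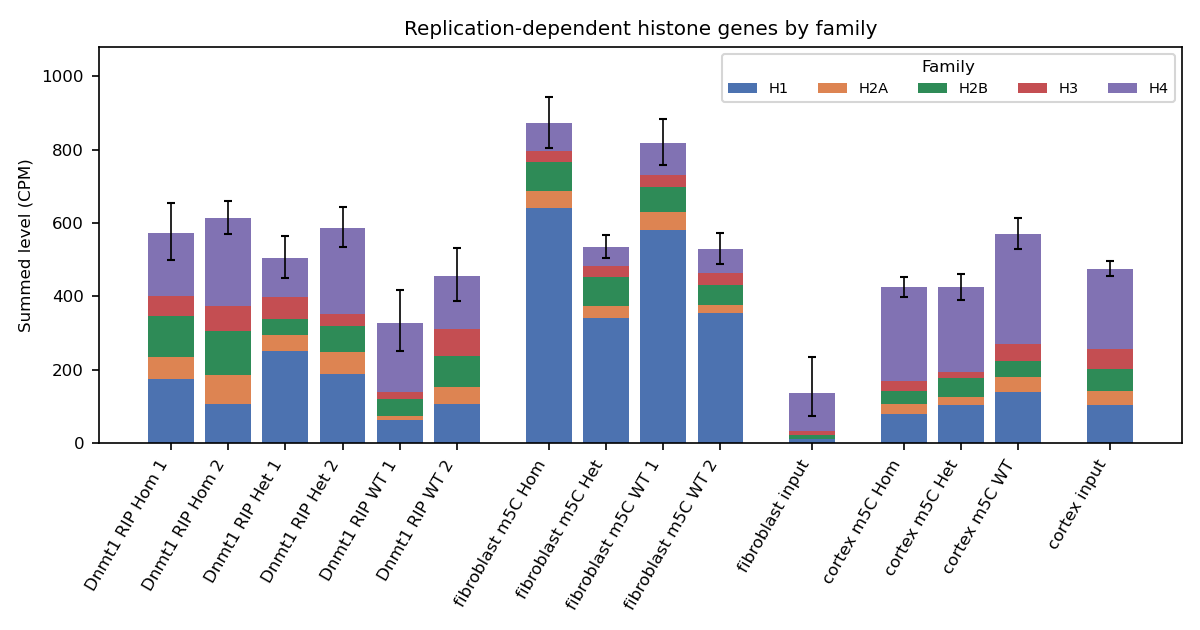
Summed level of the histone genes (CPM) in each of the 15 libraries, stacked by family, with 95% Poisson intervals of the total as bars. H1 genes fill most of the fibroblast m5C RIP columns, and H4 genes the largest part of the cortex columns.

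The linker histone genes held 64.0 to 73.6% of the histone counts in the fibroblast m5C RIP, and nearly all of that was Hist1h1c. They held 17.3 to 49.7% in the Dnmt1 RIP and 18.4 to 24.6% in the cortex m5C RIP. The 49.7% was in the first Het library of the Dnmt1 RIP (95% exact binomial interval 43.9 to 55.5%). Hist1h1c, whose product binds the linker DNA between nucleosomes, held 67.9% of the histone counts in Hom (95% exact binomial interval 64.0 to 71.6%), 60.9% in Het, and 64.4 and 63.1% in WT fibroblast m5C RIP. In the Dnmt1 RIP, also labelled fibroblast, it held 13.9 and 5.89% in Hom, 37.4 and 21.6% in Het, and 11.1 and 14.6% in WT libraries. Its share was 6.24% in Hom, 6.01% in Het and 10.3% in WT cortex m5C RIP, and 6.59% in cortex input. Without Hist1h1c the sums were 290 to 577 CPM in the Dnmt1 RIP, 195 to 291 CPM in the fibroblast m5C RIP, 398 to 511 CPM in the cortex m5C RIP and 443 CPM in cortex input. The fibroblast m5C RIP then lay below the cortex m5C RIP, and the Dnmt1 RIP overlapped both.

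The H4 genes, which encode a core histone of nearly invariant sequence, ran the other way. They held 8.70% of the histone counts in Hom, 9.83% in Het, and 10.8 and 12.3% in WT fibroblast m5C RIP. Their share was 29.8 and 39.2% in Hom, 21.2 and 40% in Het, and 57.1 and 31.8% in WT Dnmt1 RIP, and 60.6% in Hom, 54.1% in Het and 52.6% in WT cortex m5C RIP. It was 46.3% in cortex input. The fibroblast m5C RIP range lay below those of the Dnmt1 RIP and the cortex m5C RIP, which overlapped each other. The summed H4 level was 107 to 240.3 CPM in the Dnmt1 RIP, 52.5 to 88.4 CPM in the fibroblast m5C RIP and 229 to 299.9 CPM in the cortex m5C RIP.

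Scaled to transcript length, the leading genes differed between the assays and tissues. In the fibroblast m5C RIP Hist1h1c led with 285 CPM per kb (208 to 380), above the 44.9 CPM per kb of Hist1h2bc (36.4 to 53.3) in every library. In the cortex m5C RIP Hist1h4h led with 128 CPM per kb (120 to 140), followed by Hist1h4k with 58.1 (52.9 to 67.7) and Hist1h4d with 53.0 (45.4 to 65.7), and the ranges of Hist1h4k and Hist1h4d overlapped. In the Dnmt1 RIP Hist1h4h (74.9 CPM per kb, 7.11 to 149) and Hist1h1c (57.0 CPM per kb, 23.2 to 121) overlapped over most of their range. Cortex input had the same 3 leading genes as the cortex m5C RIP, with 114, 58.1 and 54.9 CPM per kb.

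The genes with long annotated transcripts, Hist1h1c among them, carried most counts in every library except fibroblast input. Counts were taken over whole genes without scaling to length, so longer transcripts can collect more of them. The median distance from stem-loop to transcript end was 752 bases in genes that ran on and 33 in those that ended near it. The shares therefore do not show which ends were made. Transcripts that ran 100 bases or more past the stem-loop held 59.5 to 77.1% of the histone counts in the Dnmt1 RIP, 77.8 to 84.9% in the fibroblast m5C RIP, 63.6 to 69.5% in the cortex m5C RIP and 65.1% in cortex input. Transcripts that ended near the stem-loop held 14.9 to 24.8% in the Dnmt1 RIP, 5.68 to 7.61% in the fibroblast m5C RIP, 19.3 to 23.5% in the cortex m5C RIP and 20.8% in cortex input. In CPM the genes that ended near the stem-loop summed to 56.9 to 149 in the Dnmt1 RIP, 30.1 to 62.3 in the fibroblast m5C RIP and 93.2 to 110 in the cortex m5C RIP, beside 98.8 in cortex input. Fibroblast input had 84.6% of its 13 counts in transcripts that ended near the stem-loop. With Hist1h1c left out, transcripts that ran on held 56.9 to 73.2% in the Dnmt1 RIP, 43.3 to 53.1% in the fibroblast m5C RIP and 61.2 to 66.0% in the cortex m5C RIP, and those that ended near the stem-loop held 17.3 to 29.1% in the Dnmt1 RIP, 15.4 to 21.4% in the fibroblast m5C RIP and 21.5 to 25.1% in the cortex m5C RIP. Without Hist1h1c the near-ending shares of the Dnmt1 RIP and the fibroblast m5C RIP overlapped, so that difference depended on Hist1h1c in the total. The fibroblast m5C RIP range still lay just below that of the cortex m5C RIP. Transcripts that ran on were then under 50% in the fibroblast Het library. The cortex input shares lay within the ranges of the cortex m5C RIP. The m5C RIP began with oligo-dT selection, and the labels do not say whether input did.

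**Figure D3:**
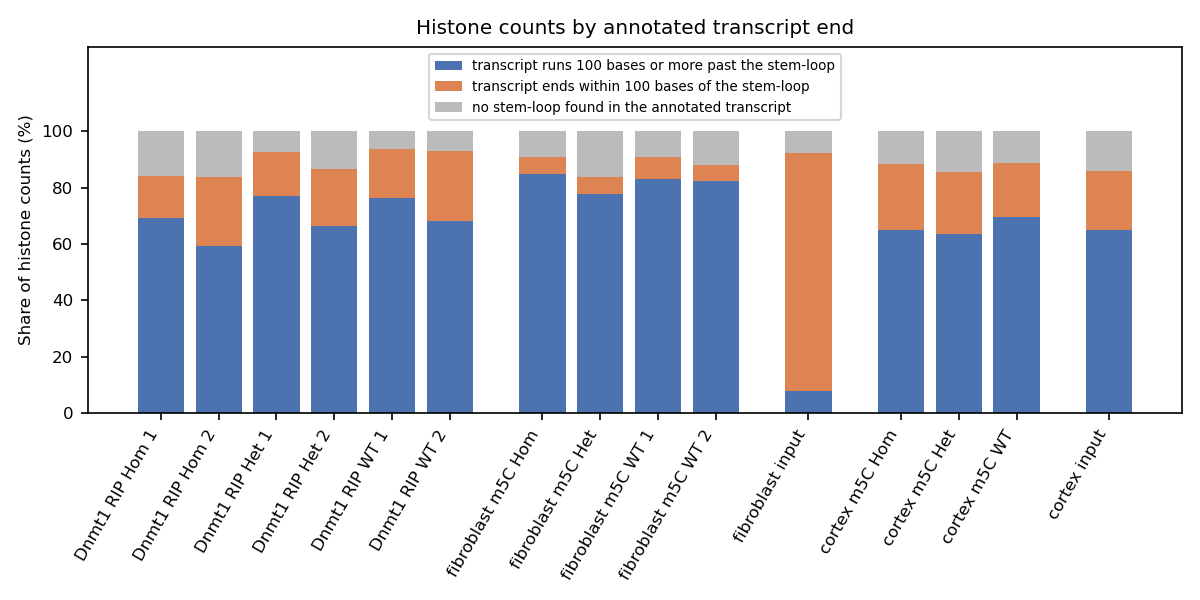
Share of the histone counts of each library (%) by where the annotated transcript ends relative to the stem-loop. Counts are of whole genes and are not scaled to length. The middle band, transcripts that end near the stem-loop, is 5.68 to 7.61% in the fibroblast m5C RIP and 14.9 to 24.8% in the Dnmt1 RIP with Hist1h1c in the total; fibroblast input rests on 13 counts.

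The Dnmt1 RIP was compared with the m5C RIP in fibroblasts (6 libraries against 4, genotype as a covariate). The Dnmt1 RIP started from fixed cells and the m5C RIP from RNA on oligo-dT beads. Effects of the antibody and of the RNA preparation therefore cannot be told apart in this comparison. Hist1h4d, Hist3h2ba and Hist1h3e were higher in the Dnmt1 RIP, and Hist1h1c and Hist1h2bc were lower. Hist1h1c had 79.8 and 36.1 CPM in Hom, 189 and 126 CPM in Het, and 36.2 and 66.5 CPM in WT Dnmt1 RIP, against 592 CPM in Hom, 325 CPM in Het, and 527 and 334 CPM in WT m5C RIP. Every Dnmt1 RIP library lay below every m5C RIP library. The log2 fold change of Hist1h1c was -3.27 ± 0.42 (SE; edgeR quasi-likelihood test, Benjamini-Hochberg adjusted p = 4.79e-05).

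Hist1h2bc, an H2B gene, had 5.32 and 12.6 CPM in Hom, 8.35 and 35.6 CPM in Het, and 20.7 and 5.79 CPM in WT Dnmt1 RIP, against 55.4 CPM in Hom, 61.6 CPM in Het, and 48.6 and 42.1 CPM in WT m5C RIP. The groups did not overlap, and the log2 fold change was -2.53 ± 0.40 (edgeR adjusted p = 0.000203). Hist1h4d, an H4 gene, had 45.2 and 45.4 CPM in Hom, 28.4 and 46.1 CPM in Het, and 62.1 and 23.1 CPM in WT Dnmt1 RIP, against 7.29 CPM in Hom, 7.22 CPM in Het, and 12.5 and 5.15 CPM in WT m5C RIP. Here all Dnmt1 RIP libraries were the higher ones, with a log2 fold change of 1.73 ± 0.40 (edgeR adjusted p = 0.00321).

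The other increases rested on few counts. Hist3h2ba, an H2B gene of the small Hist3 cluster, had 15.9 and 16.0 CPM in Hom, 1.67 and 14.5 CPM in Het, and 5.18 and 11.6 CPM in WT Dnmt1 RIP, against 0 in the Hom, Het and first WT library and 2.58 CPM in the second WT library of the m5C RIP. Its log2 fold change was 3.26 ± 1.13 (edgeR adjusted p = 0.0312). Hist1h3e, an H3 gene, had 15.9 and 7.56 CPM in Hom, 25.1 and 5.27 CPM in Het, and 15.5 and 28.9 CPM in WT Dnmt1 RIP, against 0 CPM in Hom, 2.89 CPM in Het, and 6.23 and 3.43 CPM in WT m5C RIP. Its groups overlapped at the low end of the Dnmt1 RIP, and the log2 fold change was 1.95 ± 0.71 (edgeR adjusted p = 0.0385).

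Of the 24 histone genes with enough counts to be tested, 3 (12.5%) were higher in the Dnmt1 RIP and 2 (8.33%) lower, beside 17.5% of all 17124 genes called higher and 22.6% called lower. With total counts as the scale, 25% of the histone genes were higher, beside 22.4% of all genes, and with DESeq2 25%, beside 23.1%, so the higher share lay below or above that of all genes by setting. The median log2 fold change was 0.77 over the 24 histone genes and 0.22 over all genes tested, and 20 of the 24 estimates were positive. With no filter on low counts the order was the reverse. The median was then 0.18 over 61 histone genes and 0.49 over all genes, and 35 of the 61 estimates were positive. The difference in medians therefore depended on which genes passed the filter. By family, 1 of 11 H4 genes, 1 of 5 H2B genes and the 1 H3 gene tested were higher, and 1 of 3 H1 genes and 1 of 5 H2B genes were lower. None of the 4 H2A genes passed the test, where Hist3h2a had a log2 fold change of -1.42 ± 0.77 and Hist1h2ac of 0.73 ± 0.68.

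Hist1h1c and Hist1h2bc stayed called in all 16 alternative settings, and Hist1h4d in 15 of them, the exception being WT libraries alone (adjusted p = 0.0682). Hist3h2ba lost its call without the second WT, second Het or second Hom library of the Dnmt1 RIP, or without the first WT, the Het or the Hom library of the m5C RIP (adjusted p up to 0.119). Hist1h3e lost it without the second WT, first Het or first Hom library of the Dnmt1 RIP or without any of the m5C RIP libraries (up to 0.122). The number called moved between 3 and 9 when a library was left out: 9 without the first WT library of the Dnmt1 RIP, and 3 without its second WT library or without the first WT, the Het or the Hom library of the m5C RIP. With the first WT library of the m5C RIP left out, the log2 fold changes were -3.12 for Hist1h1c, -2.51 for Hist1h2bc and 1.96 for Hist1h4d. Scaling to total counts moved the median of all genes by 0.36 and turned the calls over all genes to 3830 higher and 2096 lower, where they had been 3004 higher and 3878 lower; under it 6 histone genes were higher and 2 lower.

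**Figure D4:**
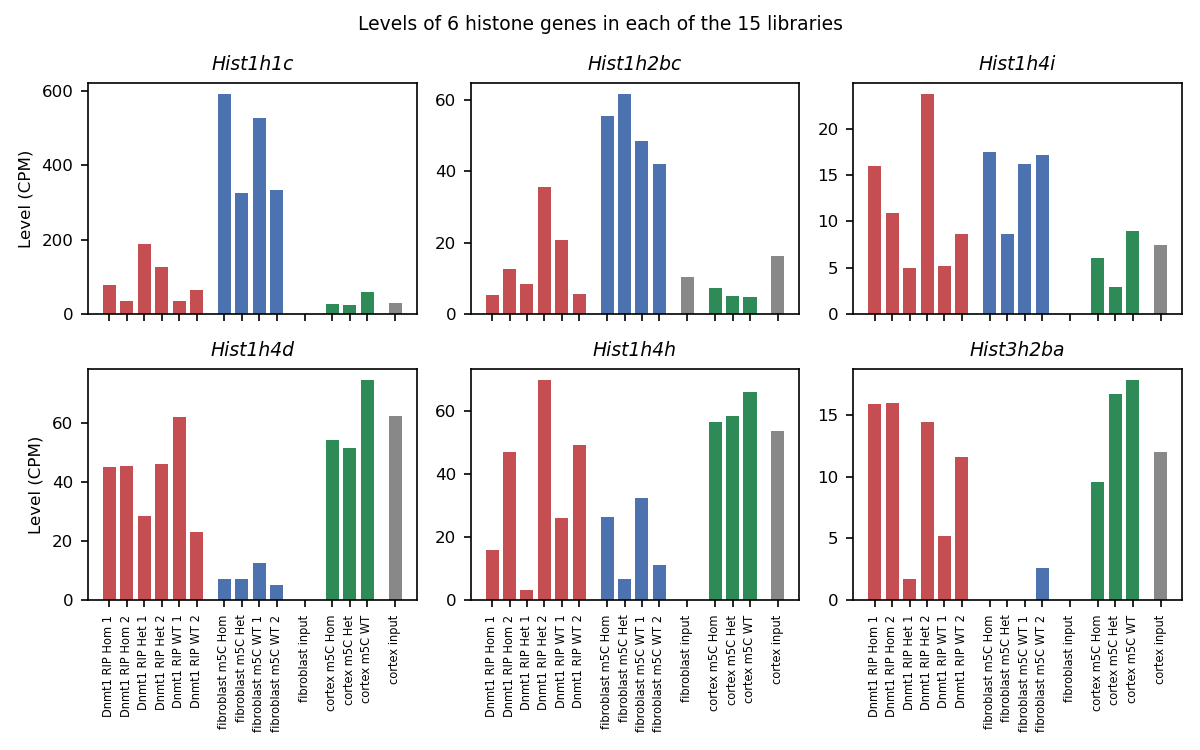
Level (CPM) of 6 histone genes in each of the 15 libraries; red, Dnmt1 RIP; blue, fibroblast m5C RIP; green, cortex m5C RIP; grey, input. Hist1h1c and Hist1h2bc are highest in the fibroblast m5C RIP, whereas Hist1h4d lies lower there than in any Dnmt1 RIP or cortex library.

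The lists of related genes were lower in the Dnmt1 RIP wherever a member passed the test. Over all genes tested, 22.6% were called lower and 17.5% higher. Of 22 S phase genes tested, 14 were lower in the Dnmt1 RIP and 0 higher (median log2 fold change -1.03), among them the replication clamp Pcna (-2.27 ± 0.28), the helicase subunit Mcm6 (-1.52 ± 0.27) and the ribonucleotide reductase genes Rrm1 (-1.34 ± 0.25) and Rrm2 (-2.55 ± 0.49). Of 11 replacement histones, 6 were lower and 0 higher, including the DNA damage histone H2afx (-1.27 ± 0.27), the centromere histone Cenpa (-1.15 ± 0.31), the macro-histone H2afy (-1.05 ± 0.29) and H3f3b (-1.10 ± 0.36). Of 16 genes for histone messenger RNA processing, 6 were lower and 0 higher, among them the cap-binding Ncbp2 (-1.58 ± 0.26), the decay helicase Upf1 (-1.55 ± 0.28), the scaffold Sympk (-1.15 ± 0.28) and the U7 particle protein Lsm10 (-2.0 ± 0.58). In this list 6 of the 16 estimates were positive, with a median of -0.64. Of 13 other RNAs known to lack a polyA tail, only Rprl1 was matched by name, with 1 count in all.

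The marker genes moved in the same comparison. Of the cell type markers tested, 10 of 10 for neurons, 4 of 5 for astrocytes and 4 of 5 for oligodendrocytes were higher in the Dnmt1 RIP, and 8 of 9 for fibroblasts and 8 of 8 for macrophages were lower. Within the Dnmt1 RIP the second Het library had the highest levels of Hist1h2bc and of the macrophage markers (4975 CPM), while Hist1h1c was highest in the first Het library, which had 22099 CPM of fibroblast markers and 162 CPM of macrophage markers. The part of the markers in the histone differences was not tested.

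**Figure D5:**
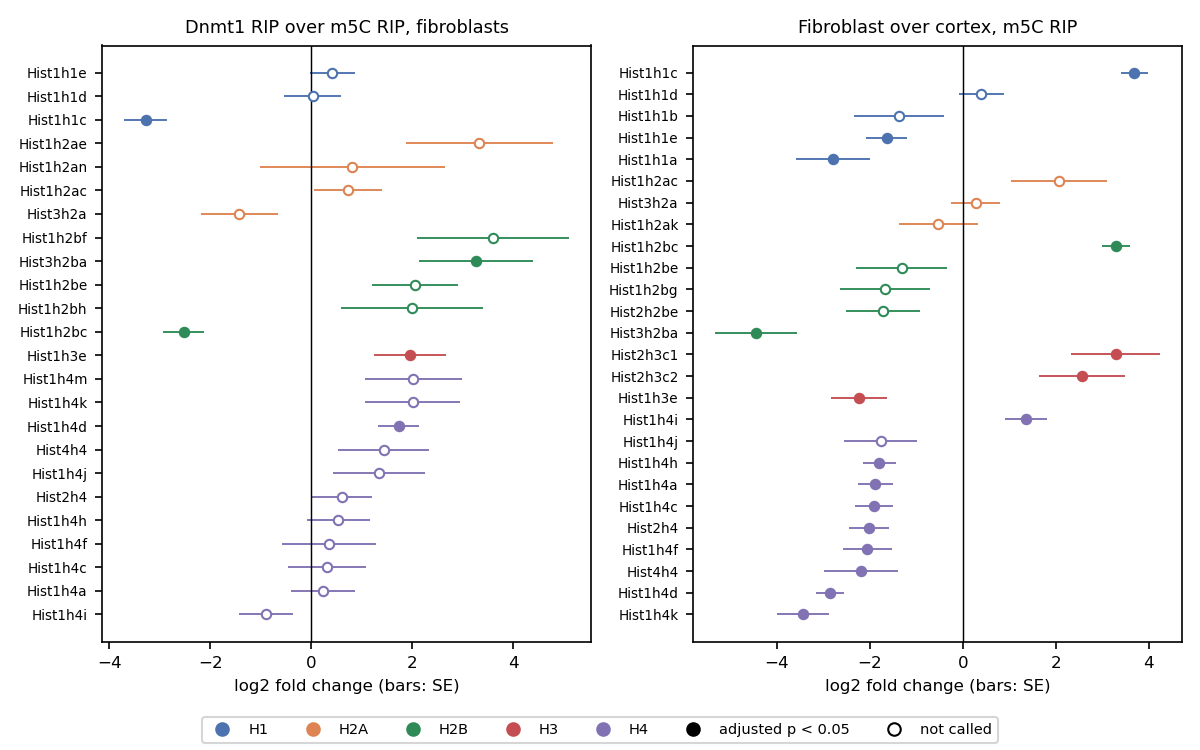
Log2 fold change of each tested histone gene, with SE as bars, for the Dnmt1 RIP over the m5C RIP in fibroblasts (left, 24 genes) and for fibroblast over cortex in the m5C RIP (right, 26 genes); filled points passed an adjusted p of 0.05. H4 genes lie mostly right of 0 on the left and left of 0 on the right, with Hist1h4i on the other side in both panels. Both comparisons use the same 4 fibroblast m5C RIP libraries.

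Fibroblasts and cortex were then compared within the m5C RIP (4 libraries against 3, genotype as a covariate). Of 26 histone genes tested, 5 (19.2%) were higher in fibroblasts and 12 (46.2%) lower, beside 33% of all 14193 genes called higher and 30.9% called lower. The median log2 fold change was -1.69 over the histone genes and 0.06 over all genes tested. Most of the lower ones were H4 genes: 8 of 10 tested were lower in fibroblasts and 1 was higher. With no filter on low counts, 21.3% of the histone genes were lower, beside 16.7% of all genes, and the medians were -0.10 and 0.68. Without the cortex WT library the lower shares were 29.2% and 25.1%. The excess of lower calls among the histone genes was thus smaller in these settings.

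Hist1h1c had 592 CPM in Hom, 325 CPM in Het, and 527 and 334 CPM in WT fibroblasts, against 26.5 CPM in Hom, 25.5 CPM in Het and 58.5 CPM in WT cortex. The lowest fibroblast library was well above the highest cortex library, and the log2 fold change was 3.69 ± 0.29 (edgeR adjusted p = 4.90e-08). Hist1h2bc had 55.4 CPM in Hom, 61.6 CPM in Het, and 48.6 and 42.1 CPM in WT fibroblasts, against 7.39 CPM in Hom, 5.10 CPM in Het and 4.88 CPM in WT cortex, a log2 fold change of 3.30 ± 0.30 (edgeR adjusted p = 2.33e-07). The H3 genes Hist2h3c1 and Hist2h3c2 had log2 fold changes of 3.29 ± 0.95 and 2.57 ± 0.93; they shared 100% and 63.5% of their 50-base stretches with other genes, so these counts are uncertain.

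Among the H4 genes, Hist1h4d had 7.29 CPM in Hom, 7.22 CPM in Het, and 12.5 and 5.15 CPM in WT fibroblasts, against 54.3 CPM in Hom, 51.7 CPM in Het and 74.8 CPM in WT cortex. All fibroblast libraries lay below all cortex libraries, and the log2 fold change was -2.86 ± 0.30 (edgeR adjusted p = 9.07e-07). Hist1h4h had 26.2 CPM in Hom, 6.74 CPM in Het, and 32.4 and 11.2 CPM in WT fibroblasts, against 56.5 CPM in Hom, 58.3 CPM in Het and 65.8 CPM in WT cortex (log2 fold change -1.79 ± 0.35). Hist1h4k (-3.43 ± 0.56), Hist1h4a (-1.88 ± 0.38), Hist2h4 (-2.01 ± 0.43), Hist1h4c (-1.91 ± 0.42), Hist1h4f (-2.05 ± 0.52) and Hist4h4 (-2.18 ± 0.80) were lower as well.

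Hist1h4i, with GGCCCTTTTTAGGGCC as its stem-loop, was the H4 gene that was higher: 17.5 CPM in Hom, 8.67 CPM in Het, and 16.2 and 17.2 CPM in WT fibroblasts, against 6.08 CPM in Hom, 2.91 CPM in Het and 8.94 CPM in WT cortex (log2 fold change 1.36 ± 0.45, edgeR adjusted p = 0.0165). Its groups overlapped at the Het fibroblast and WT cortex libraries. Hist2h4, which has the same stem-loop letters, was lower, so the letters did not sort the directions.

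Outside the H4 family, Hist3h2ba was lower in fibroblasts (log2 fold change -4.44 ± 0.88), with 0 CPM in 3 fibroblast libraries and 2.58 CPM in the second WT one, against 9.56 CPM in Hom, 16.7 CPM in Het and 17.9 CPM in WT cortex. The H1 genes were divided. Hist1h1e had 24.8 CPM in Hom, 3.85 CPM in Het, and 24.9 and 7.73 CPM in WT fibroblasts, against 32.6 CPM in Hom, 43.0 CPM in Het and 48.8 CPM in WT cortex (log2 fold change -1.63 ± 0.44), and Hist1h1a was lower too (-2.79 ± 0.80), in contrast to Hist1h1c. Hist1h3e was also lower (-2.23 ± 0.60). Of the H2A genes, none of 3 passed the test: Hist3h2a had 21.9 CPM in Hom, 10.6 CPM in Het, and 18.7 and 1.72 CPM in WT fibroblasts, against 14.8 CPM in Hom, 11.7 CPM in Het and 8.94 CPM in WT cortex (0.27 ± 0.53), and Hist1h2ac had 10.2 CPM in Hom, 3.37 CPM in Het, and 8.72 and 2.58 CPM in WT fibroblasts, against 0.87 CPM in Hom, 0 CPM in Het and 4.06 CPM in WT cortex (2.07 ± 1.03).

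Leaving out the cortex WT library ended the calls of Hist1h1a (adjusted p = 0.108), Hist1h3e (0.115), Hist1h4c (0.0579) and Hist1h4f (0.0715), and leaving out the fibroblast Het library ended that of Hist1h1e (0.0570). The call of Hist2h3c1 was lost without the fibroblast Hom library (0.0639), and those of Hist1h4i, Hist2h3c2 and Hist4h4 without the Het or the Hom library of either tissue (0.101, 0.127 and 0.128 at most over all settings; for Hist4h4 also without the cortex WT library). With fibroblast m5C WT library 1 left out, 17 histone genes were again called, with log2 fold changes of 3.69 for Hist1h1c, 3.30 for Hist1h2bc and -3.00 for Hist1h4d.

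The S phase genes and the replacement histones were mostly higher in fibroblasts. Over all genes tested, 33% were called higher and 30.9% lower. Of 23 S phase genes, 18 were higher in fibroblasts and 0 lower (median log2 fold change 2.65), with the replication licensing genes Mcm6 (5.09 ± 0.34), Mcm3 (3.69 ± 0.35) and Cdt1 (5.49 ± 0.51) and with Rrm1 (2.67 ± 0.24) among them. All 11 replacement histones were higher, including H3f3b (2.25 ± 0.19), Cenpa (3.77 ± 0.34), H2afx (2.09 ± 0.22) and H2afy (1.38 ± 0.18). Of 16 genes for histone messenger RNA processing, 7 were higher, among them Slbp (1.5 ± 0.32), Upf1 (1.14 ± 0.18) and Ncbp2 (1.46 ± 0.27), and 2 lower, among them the cleavage factor gene Cstf2 (-2.01 ± 0.26). In this list 9 of the 16 estimates were positive, with a median of 0.26. Markers of fibroblasts (8 of 9) and macrophages (8 of 8) were higher and those of neurons (10 of 10), astrocytes (5 of 5) and oligodendrocytes (5 of 5) lower in fibroblasts; the part of these cell types in the histone differences was not tested. In tissue, fewer cells of a type and less RNA per cell cannot be told apart.

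Whether the m5C antibody concentrated histone RNA over input was asked with 7 m5C RIP and 2 input libraries, 1 per tissue. The marker levels of fibroblast input lay outside the fibroblast m5C RIP ranges, which limits its use as a fibroblast reference. No histone gene of 28 tested passed the edgeR test, beside 0.683% of all 14501 genes. Only Hist1h4a had an unadjusted p under 0.05, and DESeq2 called 1 histone gene, the same one. Hist1h4a had 26.5 CPM in Hom, 22.6 CPM in Het and 26.0 CPM in WT cortex m5C RIP, against 3.93 CPM in cortex input, and all 3 m5C RIP libraries lay above it. In fibroblasts it had 8.75 CPM in Hom, 3.37 CPM in Het, and 7.47 and 7.73 CPM in WT m5C RIP, against 0 counts in input, where 0 allows up to 31.5 CPM. The log2 fold change was 2.62 ± 0.65 with an adjusted p of 0.0990 (edgeR), which was 0.00355 with DESeq2 and 0.00198 with the cortex libraries alone, and between 0.0721 and 0.291 in the other settings.

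Hist1h4a has an H4 stem-loop with letters found in no other histone gene, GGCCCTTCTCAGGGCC, and shared 40.4% of its 50-base stretches with other genes. The genes next in order of p were Hist1h1c (1.43 ± 0.83) and Hist1h4j (1.55 ± 0.93), with adjusted p of 0.762 and 0.773. In cortex, input lay within the range of the m5C RIP libraries for 17 of the 28 genes, while all 3 m5C RIP libraries were above input for 5 and below it for 6. The same count was not made over all genes, so these numbers do not set the histone genes apart. Hist1h4d had 54.3 CPM in Hom, 51.7 CPM in Het and 74.8 CPM in WT, against 62.5 CPM in cortex input, and Hist1h1e 32.6 CPM in Hom, 43.0 CPM in Het and 48.8 CPM in WT, against 44.6 CPM. Of those below input, Hist1h2bc had 7.39 CPM in Hom, 5.10 CPM in Het and 4.88 CPM in WT, against 16.2 CPM in cortex input. The median log2 fold change over the 28 genes was 0.01, against 0.21 over all genes. Without the cortex input library 3 of 25 histone genes (12%) were called, beside 41.4% of all genes, on the 13 histone counts of fibroblast input. Without any other single library, fibroblast m5C WT library 1 included, no histone gene was called, and 5 to 58 of all genes were, where 99 had been. In the fits with 1 input library, that library has no spread of its own and is taken to vary like the pull-downs. Of the other lists, 1 replacement histone, H3f3a, was lower in the m5C RIP (-2.70 ± 0.49).

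The Dnmt1 RIP was set against the single fibroblast input library, which had histone counts in 4 genes. The summed neuron markers of this input (2723 CPM) lay below the Dnmt1 RIP range, and its fibroblast and macrophage markers within it. Of 23 histone genes tested, 1 was called, beside 4.99% of all 16558 genes: Hist1h4f was lower in the Dnmt1 RIP (edgeR adjusted p = 0.0356). The spread behind this p comes from the Dnmt1 RIP alone, since input is 1 library. It had 7.97 and 16.0 CPM in Hom, 18.4 and 9.22 CPM in Het and 0 in both WT libraries of the Dnmt1 RIP, against 105 CPM, or 10 counts, in input. The call was lost without the first WT, first Hom or second Hom library (adjusted p up to 0.0646), where 0 of all genes were called as well, and DESeq2 gave none of the 23 genes an adjusted p. Hist1h1c, Hist1h4d and Hist1h4h had 0 counts in input, which allows up to 31.5 CPM each, and so a comparison with the Dnmt1 RIP levels was possible only above that limit. Hist1h1c lay above it in every Dnmt1 RIP library (36.1 to 189 CPM, with 7 counts in the first WT library) but was not called. Hist1h4d and Hist1h4h lay below it in some. The replacement histone H3f3b was lower (-2.57 ± 0.59) and the neuron marker Rbfox3, listed with 0 counts in input, was called higher.

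Genotype was compared within the Dnmt1 RIP with 2 libraries each. Of 14 histone genes tested, none was called for Hom over WT, Het over WT or Hom over Het, beside 0% of all 13589 genes in each. At an unadjusted p under 0.05 there were 1, 2 and 1 histone genes and 309, 868 and 629 of all genes in these comparisons, and DESeq2 called 0, 26 and 15 of all genes. DESeq2 called 0 histone genes, but it gave an adjusted p to 14 of the 14 for Hom over WT, 0 for Het over WT and 1 for Hom over Het. The 3 comparisons share libraries.

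Hist1h1c had the smallest p among the histone genes in both comparisons with Het. It had 79.8 and 36.1 CPM in Hom, 189 and 126 CPM in Het, and 36.2 and 66.5 CPM in WT libraries. Both Het libraries lay above all Hom and WT libraries. The log2 fold change was 1.68 ± 0.55 for Het over WT (edgeR adjusted p = 0.732) and -1.64 ± 0.52 for Hom over Het (edgeR adjusted p = 0.988). The summed fibroblast markers were also highest in Het, with 1159 and 2640 CPM in Hom, 22099 and 8008 CPM in Het, and 595 and 2069 CPM in WT; their part in the Hist1h1c levels was not tested.

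Hist1h4f had 0 counts in both WT libraries, which allows a mean of up to 12.1 CPM. The Het mean was 13.8 CPM, at least 1.14-fold higher than in WT before the counting error of its 11 and 7 counts, and the Hom mean was under the limit. Hist1h1d, an H1 gene, had 29.2 and 27.7 CPM in Hom, 35.1 and 39.5 CPM in Het, and 0 and 23.1 CPM in WT libraries (Het over WT 1.52 ± 0.88). Hist1h1e had 55.8 and 37.8 CPM in Hom, 18.4 and 18.4 CPM in Het, and 25.9 and 17.4 CPM in WT libraries, the Hom libraries being the highest (1.11 ± 0.64 over WT and 1.19 ± 0.59 over Het, edgeR adjusted p of 1 and 0.988). Hist1h4k (2.37 ± 1.42 for Hom over WT) and Hist1h2ac (1.72 ± 1.12 for Hom over Het) had the next smallest p.

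The remaining genes of highest level in their family showed wide scatter within genotypes. Hist1h4h had 15.9 and 47.0 CPM in Hom, 3.34 and 69.8 CPM in Het, and 25.9 and 49.2 CPM in WT libraries. Hist3h2a had 0 and 9.24 CPM in Hom, 20 and 11.9 CPM in Het, and 0 and 5.79 CPM in WT, and Hist1h2ac had 21.3 and 27.7 CPM in Hom, 1.67 and 11.9 CPM in Het, and 0 and 28.9 CPM in WT. Hist1h3f had 13.3 and 10.9 CPM in Hom, 0 and 5.27 CPM in Het, and 5.18 and 0 CPM in WT. All histone genes together had 63 and 157 counts in the WT libraries.

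In the m5C RIP the genotypes were compared over both tissues (7 libraries, tissue as a covariate). None of 26 histone genes was called for Hom over WT or Het over WT, beside 0% of all 14193 genes in each. No histone gene had an unadjusted p under 0.05, whereas 122 and 564 of all genes did, and DESeq2 called 0 of all genes in each. Without fibroblast m5C WT library 1 there was still no histone gene called, but 17 and 10 of all genes were, and 651 and 632 had an unadjusted p under 0.05. The histone genes under it were then Hist3h2a for Hom over WT (1.70 ± 0.69) and Hist1h1c for Het over WT (-0.58 ± 0.27), with edgeR adjusted p of 0.798 and 0.999. The number of all genes under 0.05 also moved to 298 without the fibroblast Hom and 66 without the cortex WT library for Hom over WT, and to 991 without the second fibroblast WT, 925 without the cortex Het and 274 without the cortex WT library for Het over WT. For Hom over WT the smallest p belonged to Hist3h2a (0.98 ± 0.63), Hist1h3e (-1.04 ± 0.71) and Hist3h2ba (-1.26 ± 0.99), and for Het over WT to Hist1h4i (-1.14 ± 0.54), Hist1h1c (-0.63 ± 0.32) and Hist1h3e (-1.42 ± 0.72). Hist1h3f, at 0, 0.963, 0 and 5.15 CPM in Hom, Het and the WT libraries of fibroblasts and 4.78, 2.91 and 7.32 CPM in Hom, Het and WT cortex, was not tested. Of the other lists, no gene was called in any genotype comparison of either antibody.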

How the data were processed

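The deposited tables hold raw read counts per gene, 1 table per library. Trim Galore 0.4.1, HISAT2, featureCounts and the build mm10 are named in the submitters' processing notes. In 6 tables there are also 5 entries for reads given to no gene, which were kept out of totals and tests. They cover reads in no feature, ambiguous, of low quality, not aligned or not uniquely aligned. Genes held 3.79 to 10.1% of the reads in these tables. The 6 tables are those of cortex and of the fibroblast m5C Het and Hom libraries. Whether the other libraries were counted in the same way is not known. edgeR 4.0.16 (R 4.3.3) was used for all tests (filterByExpr over the labelled groups with a minimum count of 10 and a minimum total of 15, TMM, glmQLFit, glmQLFTest) over all genes passing the filter, two-sided; p-values were adjusted by Benjamini-Hochberg and called under 0.05. SE is the log2 fold change over the square root of F. The fits were tested on simulated data. Named were the 2 genes of highest mean CPM per family, up to 12 called genes per direction or, with none called, the 3 of smallest p, and up to 4 genes per other list. The genes and lists were chosen with earlier results of these data known. Alternatives were RLE factors, total counts, no filter, DESeq2 1.42.0, the 4 dominant genes left out, subsets of libraries, the replicate number as a block, and each library left out. Symbols were matched to GENCODE M21. Python 3.11.15 was used for tables and plots.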

Additional observations from a re-analysis of the deposited data

Results flagged for a closer look

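For Hist1h1c, Het and WT libraries were ordered in opposite ways by the antibodies when all libraries were used. The log2 ratio of the mean CPM, Het over WT, was 1.62 in the Dnmt1 RIP, where both Het libraries were above both WT libraries, and -0.41 in the fibroblast m5C RIP, where the Het library was below both WT libraries. The second value rests on WT library 1, which was at or above the Hom library in every gene; against WT library 2 alone it was -0.04, with 325 CPM in Het and 334 CPM in WT. The difference between the antibodies, which also differ in RNA preparation, was not tested.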

How the results depend on the processing

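Of 115 repeats of the counts of called histone genes, 97 stayed within 1.5 times the reported count. The 97 include the repeats of the genotype comparisons, where 0 were called in the main fit and in every repeat. The total therefore does not measure how stable the comparisons with calls were. For the Dnmt1 RIP over the m5C RIP (5 called), 8 were called with total counts, with no filter and with DESeq2, 2 with WT libraries alone (fewer genes tested), and 3 to 9 with a library left out. For the m5C RIP over input (0 called), 1 was called with DESeq2 and with cortex alone, and 0 to 3 with a library left out. For the Dnmt1 RIP over input (1 called), 2 were called with total counts and with no filter, 0 with WT libraries alone, and 0 to 1 with a library left out. The cause of these shifts was not tested. Total counts moved the median of all genes by 0.36, -0.14, 0.26, -0.39 and -0.35 on the log2 scale for the Dnmt1 RIP over the m5C RIP, fibroblast over cortex, the m5C RIP over input, Hom over WT and Hom over Het in the Dnmt1 RIP. DESeq2 gave no histone gene an adjusted p for the Dnmt1 RIP over input or for Het over WT in the Dnmt1 RIP, so it has no value there. Of 511 repeats for 41 results of named genes, 472 kept their direction and side of the threshold, 36 lost the call, 3 gained it and 0 reversed. The 472 include genes that were not called in the main fit and stayed so. With the replicate block, 0 histone genes were called in each genotype comparison of the Dnmt1 RIP, as without it. Deviations of same-numbered libraries from their genotype mean had correlations of 0.202 (Hom and WT), -0.0059 (Het and WT) and 0.0589 (Hom and Het). With 2 libraries per genotype, these values cannot show whether the numbers mark a shared batch. Depth limits all of this: 14 genes had under 10 counts in all libraries together and 34 had 10 to 99.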
